A study of Mus musculus with 2 samples.

Results

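Artery to capillary transition cells of the mouse lung are described here: 216 of 27041 cell barcodes, 131 of 15996 in the library labelled aWT and 85 of 11045 in the library labelled aKO. They were chosen by the balance of 2 sets of transcripts counted as unique molecular identifiers (UMIs, one per captured RNA molecule). The capillary set, G, was the sum of Glp1r, Sema3c, Adgrl3 and Aplnr, and the arterial set, R, was the sum of Atp13a3, Stk32a, Sgcz and Adgrg6. A transition cell had at least 2 UMIs of each set, with R making up 40 to 60% of their sum. Cells with at least 3 UMIs of the lymphatic genes Prox1, Mmrn1 and Reln, with at least 2 UMIs of Esm1 and Gzmk, or with at least 2 UMIs of Fibin, Emp2, Rgs6, Tbx2, Slc6a2, Mmp16, Kirrel3 and Car8 were left out, as were those with fewer than 500 genes, over 15% mitochondrial UMIs, or a total outside 2000 to 8000 UMIs.

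The study sorted lung cells marked red by VE-cadherin-cre (the promoter of an endothelial junction gene drives the recombinase, which turns on the fluorescent protein tdTomato) and read them by droplet 3' sequencing. Both libraries came from C57BL/6J mice of 10 to 12 weeks, in a model of hereditary hemorrhagic telangiectasia 2 according to the title. The labels give the groups only as aWT and aKO and name no deleted gene, sex, number of animals or Cre induction, and each group was 1 library. The comparisons below are therefore descriptions of 2 libraries with no test and no replicate check, and all intervals are 95% and cover counting error only.

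Blood in the lung passes from arteries through arterioles into a dense capillary net. Endothelial cells change their genes step by step along that route, from a Notch-driven arterial program with gap junction proteins to a capillary program of lipid and adhesion genes. ALK1, encoded by Acvrl1, is an endothelial receptor for the circulating ligand BMP9. With its co-receptor endoglin it signals through SMAD proteins to genes such as Id1 and Id3, and loss of this pathway in people gives direct shunts between arteries and veins, that is, malformations at the very step where the capillary bed is bypassed.

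The cells around the transition cells were sorted in the same way into 5 zones by R share, with G plus R of at least 4 UMIs. In aWT there were 5512 cells at the capillary end (R at most 10%), 258 capillary-leaning, 131 transition, 226 arterial-leaning and 382 arterial-end cells (R at least 90%). In aKO the same zones held 2599, 148, 85, 177 and 281 cells. Of cells within the UMI range, transition cells made up 1.12% in aWT (0.936 to 1.33%) and 1.42% in aKO (1.14 to 1.76%), and the intervals overlapped. Their share of all cells from the transition zone to the arterial end was 17.7 and 15.7%, again with overlapping intervals. The share follows the width of the rule: with R at 45 to 55% it was 0.564% and 0.653%, and with 35 to 65% it was 1.51% and 2.03%. In aKO it also followed the UMI limit, since without an upper limit it was 1.14%. Of barcodes passing the gene and mitochondrial limits, the UMI range kept 11710 of 15651 in aWT and 5969 of 10785 in aKO. The libraries are therefore compared over unlike parts of their depth, here and below.

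The rule's own values show how thin the line is. Median G and R were 10 and 10 UMIs in aWT transition cells, and 7 and 7 in aKO. Just outside the lower limit, 51 aWT and 39 aKO cells had an R share of 30 to under 40%, with median G of 14 and 8 and median R of 8 and 4. Just outside the upper limit, 45 aWT and 43 aKO cells had an R share over 60 to 70%, with median G of 8 and 6 and median R of 15 and 11. Cells inside at 40 to 45% numbered 32 and 26, and inside at 55 to 60% numbered 35 and 21. Another 5 aWT and 11 aKO cells had 1 UMI of each set and were too shallow to be placed.

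Among the genes that chose the cells, Adgrl3, an adhesion receptor, was the most counted of the capillary set, at 2099 CPM (UMIs summed over the cells and scaled to a common total) in aWT transition cells and 1469 in aKO. Sema3c, a secreted guidance factor, stood at 701 and 314 CPM, and Glp1r, the receptor of the incretin GLP-1, at 114 and 33.5 CPM. Of the arterial set, Atp13a3, a polyamine transporter, was at 1523 and 1087 CPM, Adgrg6 at 936 and 242, Stk32a, a kinase, at 237 and 371, and Sgcz at 180 and 111 CPM. Both sets were therefore counted in these cells in both libraries, as the rule demands. Aplnr, the apelin receptor, ran with the others in aWT (122, 36.9, 14.7, 12.8 and 4.04 CPM from the capillary to the arterial end) but not in aKO (53.5, 22.1, 54.1, 116 and 23.5 CPM), where its highest level was in arterial-leaning cells. Because these genes differ in level between the libraries, the same rule need not pick the same position along the vessel in both, and how far this bears on the differences below was not tested. Selecting cells instead by the genes outside the rule (an arterial share of 25 to 45%, defined below) took 242 aWT and 223 aKO cells, which held 57 (43.5%) and 43 (50.6%) of the transition cells.

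Doublets, droplets holding 2 cells, can also carry transcripts of both sides. Scrublet, which scores each barcode against simulated pairs, called 6 of 131 aWT transition cells (4.58%, 1.70 to 9.70%) and 0 of 85 in aKO, which allows up to 4.25%. Over all barcodes passing the gene and mitochondrial limits, at any UMI total, it called 4.65% in aWT and 3.37% in aKO. Among capillary-leaning cells it called 7.36% and 1.35%. The rates were 0.925% and 0.077% at the capillary end, 0% and 0% in arterial-leaning cells, and 0.262% and 0% at the arterial end. In aWT the rate in transition cells was thus above that of both ends and below that of capillary-leaning cells. Transition cells were not richer in UMIs than both ends: in aWT the medians were 3747 at the capillary end, 4029 in transition cells and 4456 at the arterial end, and in aKO 4792, 4408 and 5377. The rule admits no barcode above 8000 UMIs, so deep doublets are missing from every zone and this comparison could not show them. After thinning to 2000 UMIs per cell, transition cells held a median of 1250 genes in aWT against 1250 and 1235 at the ends, and 1298 in aKO against 1298 and 1265. Cells that met the G and R limits but were left out for other transcripts had higher medians, 5288 UMIs in aWT and 5973 in aKO, and numbered 225 of 356 and 59 of 144. Of the deposited barcode sequences, 48 were in both libraries, among them that of 1 aWT transition cell, whose counterpart in aKO was not a transition cell.

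Cell types outside the endothelium left few transcripts, apart from epithelial genes in aWT. Venous genes, of another endothelial type, rose toward the arterial end. From the capillary end on, the 12 genes summed to 619, 1107, 1889, 2756 and 3534 CPM in aWT. In aKO the sums were 958, 1023, 1257, 1361 and 1417 CPM. Vwf and Vcam1, described below with the arterial genes, are on this list. How far venous cells add to these zones was not tested. All 18 pan-endothelial genes were detected, with sums of 23346 (aWT) and 23978 CPM (aKO). Leukocyte genes summed to 12.9 and 5.15 CPM (5 and 1 of 12 detected), with Ptprc and Cd68 at 0 UMIs in both, and fibroblast and mesothelial genes to 3.68 and 12.9 CPM, with Col1a1, Col1a2 and Pdgfra at 0. Pericyte and smooth muscle genes summed to 20.2 and 20.6 CPM, with Pdgfrb and Rgs5 at 0. Epithelial genes were higher in aWT. Airway genes summed to 361 CPM in aWT against 18.03 in aKO, and in aWT to 71.0 at the capillary end, 329 in arterial-leaning cells and 109 at the arterial end. Alveolar genes summed to 145 CPM in aWT (9 of 12 detected) and 2.58 in aKO, and in aWT to 222 and 185 CPM at the ends. A single aWT cell of 6999 UMIs, with G of 3 and R of 2 and not called a doublet, held 123 of the 172 Scgb1a1 UMIs, 31 of 33 of Sec14l3 and all 40 of Dnah12, and these genes are not described further. Alveolar Sftpc had 61 UMIs in 45 aWT transition cells and 0 in aKO, at least 14.5-fold lower with a floor of 3 counts, and in aWT it was at 166 and 132 CPM at the ends too.

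Genes outside the rule that differed between the ends mostly stood between them in transition cells. These genes were chosen by their difference between the ends in these same data. Any mixture of both ends, doublets included, would therefore stand between them, so the positions below cannot tell a transition cell from a mixture. Of 3943 genes tested, 156 (3.96%) were at least 2-fold higher at the arterial than at the capillary end in both libraries, and 218 (5.53%) were at least 2-fold higher at the capillary end. On a scale where 0 is the capillary end and 1 the arterial end of log2(CPM + 5), arterial genes stood in transition cells at a median of 0.60 in aWT (quartiles 0.44 and 0.71) and 0.61 in aKO (0.44 and 0.75). Capillary genes stood at 0.40 (0.29 and 0.55) and 0.47 (0.33 and 0.62). In aWT 151 of the 156 arterial and 209 of the 218 capillary genes lay between the ends, and in aKO 145 and 208 did. The position depends on the scale, because on linear CPM the arterial genes stood at 0.37 and 0.40, and the capillary genes at 0.57 and 0.65.

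The same was seen cell by cell. In each cell the UMIs of the 156 arterial genes were taken as a share of those of the 156 and 218 genes together. In aWT the median share went from 8.27% at the capillary end through 18.9% in capillary-leaning, 31.5% in transition and 50.3% in arterial-leaning cells to 72.8% at the arterial end. In aKO it went through 7.80, 21.0, 29.4, 47.0 and 61.2%. Single transition cells ranged from 14.1 to 84.0% in aWT and from 14.0 to 60.4% in aKO, so that cells of the same G and R balance differed widely in their other genes. In aWT 103 of 131 (78.6%) and in aKO 63 of 85 (74.1%) lay between the 95th percentile of the capillary end and the 5th percentile of the arterial end. Of the rest, 2 and 1 lay in the capillary range and 26 and 21 in the arterial range.

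**Figure D1:**
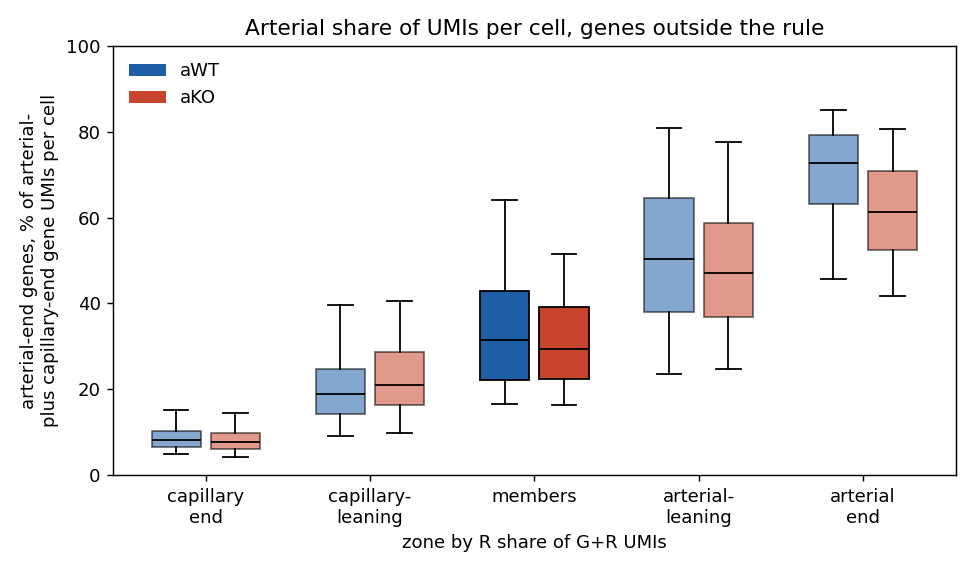
Share of each cell's UMIs of genes outside the rule that came from the 156 arterial-end genes (y axis, %), by zone (x axis) and library. Boxes are quartiles with the median, whiskers the 5th and 95th percentiles over cells of 1 library; transition cells ("members") sat at medians of 31.5% in aWT and 29.4% in aKO, between the neighbouring zones.

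Among the leading arterial genes, Mecom, an arterial transcription factor, went from the capillary to the arterial end through 43.6, 373, 835, 1472 and 2203 CPM in aWT. The aKO values were 23.5, 262, 291, 671 and 1177 CPM. Mecom thus rose from zone to zone, but in aKO only from 262 to 291 CPM between capillary-leaning and transition cells. Vwf, the clotting factor of larger vessels and a gene of the venous list, followed in aWT with 153, 728, 1440, 2229 and 2802 CPM. In aKO it levelled off, at 29.6, 246, 420, 457 and 475 CPM. Fbn1, a microfibril protein, stood at 149 CPM in aWT transition cells between 8.39 and 317 at the ends, and at 134 CPM in aKO between 6.18 and 239. Cd55, a complement regulator, stood at 88.3 and 103 CPM, with 277 and 253 at the arterial end. Mgp, a matrix protein that binds BMPs, reached 407 CPM in aWT transition cells but 38.6 in aKO, where its arterial end was at 644. Vcam1 and Cdh13 are less sure in aKO transition cells, because 1 cell held 45% of the Vcam1 UMIs and 1 cell 23% of those of Cdh13.

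The capillary genes fell off along the same path. Kit, a growth factor receptor of general capillary cells, had 704, 469, 302, 138 and 35.8 CPM in aWT and 296, 209, 173, 138 and 93.4 in aKO, a flatter course with crossing levels at the arterial side. Gpihbp1, which carries lipoprotein lipase to the capillary lumen, had 824, 811, 677, 394 and 122 CPM in aWT, and in aKO it was already down to 232 CPM in transition cells from 659 at the capillary end. Scn7a, a sodium channel, dropped from 769 to 151 CPM in aWT and from 223 to 49.0 CPM in aKO transition cells. Aff3, a transcription elongation factor, had nearly the same course in both, with 563 and 538 CPM in transition cells.

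Lists of markers gave a like picture, though not from separate genes. Many large artery and general capillary genes, such as Mgp, Eln, Gpihbp1 and Kit, were also among the genes chosen by the ends. So were the arteriole genes Gja5, Mecom and Htra1. Of 14 arteriole genes, 9 were at least 1.5-fold higher in aWT transition cells than at the capillary end, and 6 in aKO, against 10.8 and 12% of all genes at 5 CPM. Their summed level in aWT was 5133, 7726, 9118, 10348 and 9230 CPM over the zones, and 3130, 3415, 3769, 3577 and 3859 in aKO. The aKO sum varied less than its single genes, since Tmem100, the most counted, went from 2081 CPM at the capillary end to 1927 in transition cells and 1081 at the arterial end, while Mecom went the other way. Of 13 general capillary genes, 10 in aWT and 11 in aKO were at least 1.5-fold higher than at the arterial end (all genes: 13.4 and 14.2%), and none was lower. Against the capillary end 5 and 8 of them were lower (all genes: 9.75 and 12.3%). Large artery genes marked the other border: 10 of 12 measured were at least 1.5-fold lower than at the arterial end in each library (all genes: 11.8 and 13.6%), and 10 and 11 were higher than at the capillary end.

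Very few genes passed both ends. At least 1.5-fold higher than both ends in both libraries were 4 of 3439 genes (0.116%), and lower were 2 of 3193 (0.0626%). In 1 library at a time, 29 genes (0.746%) in aWT and 80 (1.91%) in aKO were higher, and 22 (0.635%) and 63 (1.73%) were lower, with more calls in aKO, whose sums were smaller (388149 UMIs against 543643).

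Slc6a6, the taurine transporter (chromosome 6, 91684053 to 91759066, plus strand, GRCm38), peaked in the middle. In aWT it had 150, 236, 473 (417 to 534), 509 and 205 CPM, a rise and fall with the transition and arterial-leaning cells together above both ends. In aKO it had 44.7, 64.7, 77.3 (52.1 to 110), 60.3 and 27.0 CPM, again highest between the ends but at a lower level. Both neighbouring zones lay within the interval of the aKO transition cells, so the place of the peak is not resolved there. The gene was counted in 73 of 131 and 24 of 85 cells, with no single cell above 7% of its UMIs. Its call held under 11 of 13 alternatives and was lost with a lower upper limit on UMIs per cell and with a minimum of 100 CPM.

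Slit3, a secreted guidance ligand of Robo receptors (chromosome 11, 35121224 to 35708507), had 73.7, 267, 281 (239 to 330), 279 and 182 CPM in aWT. In aKO it had 39.0, 79.5, 67.0 (43.8 to 98.2), 35.5 and 27.7 CPM, highest in the capillary-leaning cells. Grik2, a glutamate receptor subunit, was at 88.3 CPM against 53.3 and 31.8 at the ends in aWT, and at 100.5 against 58.8 and 27.7 in aKO. Capillary-leaning cells were nearly as high (80.5 and 79.5 CPM), and without the cell holding most Grik2 UMIs in each library the transition cells were at 72.2 and 78.0 CPM. The calls of Slit3 and Grik2 held under 6 of 13 alternatives each, and that of Zfp384 under 7. Zfp384, a zinc finger protein, was at 51.5 and 64.4 CPM, next to its minimum of 50. The lower pair was Immp2l, a mitochondrial peptidase, at 58.9 and 46.4 CPM, and Cradd, a death domain adaptor, at 33.1 and 43.8 CPM. When each gene was counted without the transition cell that held most of it, and the ends were left unchanged, 1 higher gene was left, Slc6a6, and 4 genes were lower. This step can only lower a gene in transition cells, so it can remove higher calls and add lower ones but not the reverse.

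Cxcl12, the chemokine that guides arterial assembly (chromosome 6, 117168535 to 117181367), had the same form in aWT at far higher counts. It stood at 483, 1647, 2557 (2424 to 2695), 2811 and 1613 CPM and was found in 123 of 131 cells. In aKO it had 81.2, 175, 206 (163 to 257), 189 and 137 CPM, in 38 of 85 cells. Transition cells were above both ends in each library, in aKO by 1.505-fold over the arterial end in CPM but by less on the log2(CPM + 5) scale used for calls. It was called in aWT alone as computed and in both libraries under 4 of 13 alternatives, and the difference between the libraries in this shape was not tested. Inhbb, an activin subunit named here after its values were seen, passed both ends in aKO (6.42, 22.1, 64.4, 13.0 and 3.46 CPM), from 25 UMIs in 10 cells.

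**Figure D2:**
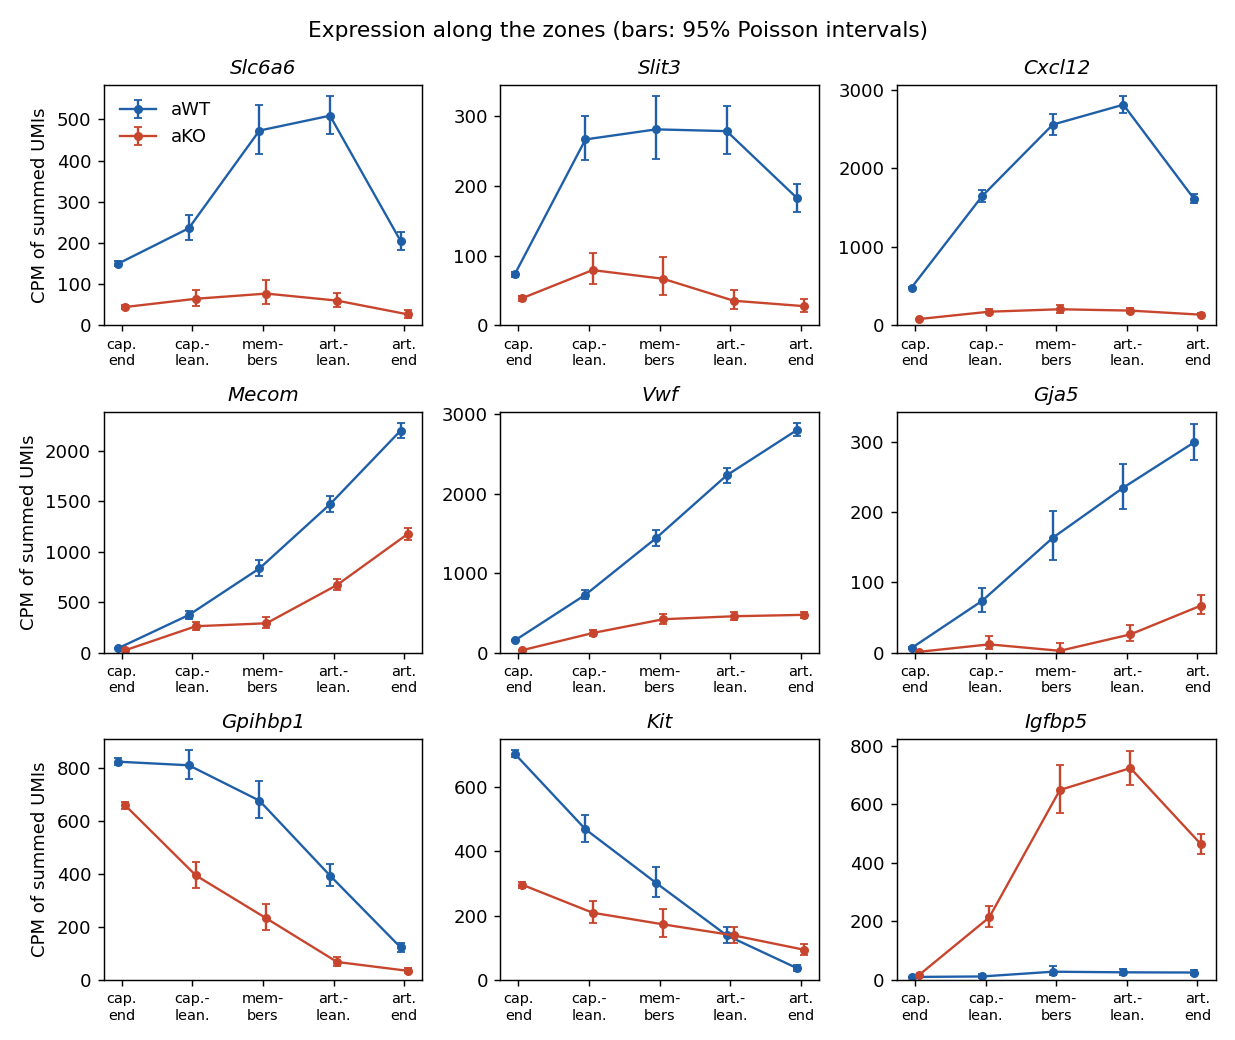
CPM of summed UMIs (y axis) over the 5 zones (x axis) for 9 genes in aWT (blue) and aKO (red), each point 1 library with its 95% Poisson interval. Slc6a6, Slit3 and Cxcl12 were highest between the ends in aWT, where Mecom, Vwf and Gja5 climbed and Gpihbp1 and Kit dropped toward the arterial end, and Igfbp5 was counted mainly in aKO.

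Between the libraries, 407 of 4635 genes (8.78%) were at least 2-fold higher in aKO transition cells and 263 (5.67%) were lower. The split between higher and lower rests on the scaling: 60.75% of these genes were higher as computed, 48.94% with TMM factors, 49.6% when ratios were centred on the median gene, and 47.0% after thinning each cell to 2000 UMIs. The median log2 ratio of all tested genes was 0.11. The ends had fewer such genes, 164 (3.75%) and 135 (3.09%) at the capillary end and 269 (6.04%) and 228 (5.12%) at the arterial end, with far more cells behind them. Of the 407 higher genes, 122 were also higher at the capillary end and 149 at the arterial end, and 213 were in neither. Of the 263 lower genes 105 and 118 were shared, and 103 were in neither. A gene in neither only missed the 2-fold call or the minimum level at both ends. These counts therefore do not show differences limited to transition cells. The libraries differed in sex as well, since transition cells held Xist at 5.52 (aWT) and 927 CPM (aKO), so sex, genotype and library cannot be told apart.

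Of 14 genes for BMP and TGF-beta receptors and SMADs, 4 were at least 1.5-fold higher in aKO transition cells and 5 lower, with a median log2 ratio of 0.40, against 22.1% higher and 18.5% lower among all genes at 5 CPM (median 0.09). The same 2 shares are the background of every list count between the libraries below. The 3 receptor genes of the BMP9 complex named here were lower. Acvrl1 (chromosome 15, 101128522 to 101145336) stood at 1014 CPM (931 to 1102) in 122 aWT cells and at 621 CPM (545 to 704) in 71 aKO cells. These are 3' reads, which would still be counted if an exon elsewhere in the gene were missing, so they check no label. Eng, endoglin, was at 1431 and 497 CPM, and Bmpr2, the type II receptor, at 2835 and 827 CPM. Smad1, a transducer of the signal, went the other way, with 80.9 and 289 CPM.

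Most response genes were lower in all 3 zones. In aKO transition cells 10 of the 12 measured BMP9 and ALK1 response genes lay at least 1.5-fold below aWT and 1 lay above, with a median log2 ratio of -1.99 (all genes: 18.5% lower, 22.1% higher). The ends were alike in this, with 9 of 11 lower at the capillary end (median -1.65) and 10 of 12 at the arterial end (median -1.75). Id3, an inhibitor of helix-loop-helix factors, had 1142 CPM in aWT (1054 to 1236) and 12.9 in aKO (4.18 to 30.1), 88.7-fold lower (37.8 to 274), and was found in 122 and 5 cells. Thinned to 2000 UMIs per cell, 81.7% and 2.35% of cells held an Id3 UMI. Numbers of cells given for other genes are at full depth. Id1 had 1258 and 51.5 CPM, 24.4-fold lower (15.7 to 40.2), in 120 and 14 cells. Id2 had 208 and 10.3 CPM. The inhibitory SMADs, which damp the pathway, were lower too, Smad6 with 1742 and 160 CPM and Smad7 with 911 and 87.6 CPM. Tmem100, a membrane protein induced by ALK1, did not follow, with 1900 and 1927 CPM, and Ackr3, a scavenger receptor of Cxcl12, was higher, with 69.9 and 340 CPM. The other lower genes were Tspan18 (340 and 69.6 CPM), Cxcr4 (75.4 and 30.9 CPM), Bambi, with 16 and 2 UMIs, and Smad9 and Hey2, each with only 4 and 1 UMIs. Atoh8 fell short of the minimum of 5 CPM.

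**Figure D3:**
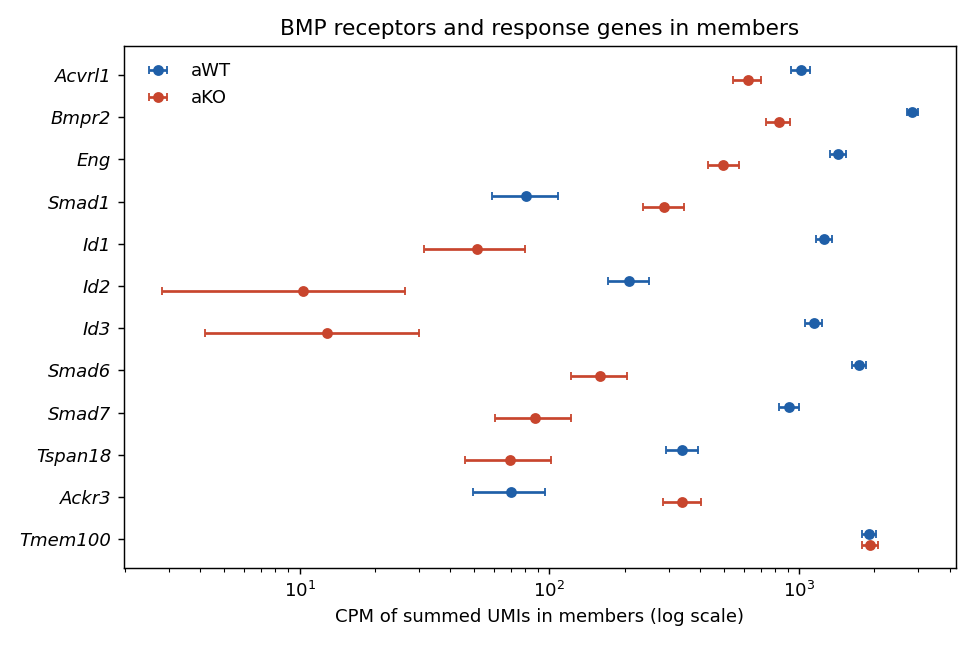
CPM of summed UMIs in transition cells (x axis, log scale) for BMP receptors, SMADs and response genes in aWT (blue) and aKO (red), with 95% Poisson intervals. Id1, Id2, Id3, Smad6 and Smad7 sat far lower in aKO, Ackr3 and Smad1 higher, and Tmem100 at 1900 and 1927 CPM.

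Promoters of 3 genes lower in aKO are shown, since SMAD1 and SMAD5 are known to bind the GC-rich word GGCGCC. Id2 and Id3 are response genes of the list, and Cxcl12, which is not in it, is shown for its course along the zones. They are the 250 bases before each RefSeq gene start, read 5′ to 3′ on the gene's strand (GRCm38.p6), with GGCGCC, which reads the same on both strands, in capitals:
Id2, chr12:25096093-25096342, minus strand: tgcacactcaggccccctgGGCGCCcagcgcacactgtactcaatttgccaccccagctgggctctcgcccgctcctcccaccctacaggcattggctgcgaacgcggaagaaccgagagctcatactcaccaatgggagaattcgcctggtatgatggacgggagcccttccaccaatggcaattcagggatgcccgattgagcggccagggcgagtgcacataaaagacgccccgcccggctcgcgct
Id3, chr4:136143572-136143821, plus strand: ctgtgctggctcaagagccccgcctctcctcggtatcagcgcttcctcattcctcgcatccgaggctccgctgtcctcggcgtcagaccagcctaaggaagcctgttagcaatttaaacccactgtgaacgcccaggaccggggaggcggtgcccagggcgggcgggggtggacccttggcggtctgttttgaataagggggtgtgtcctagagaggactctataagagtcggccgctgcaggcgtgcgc
Cxcl12, chr6:117168285-117168534, plus strand: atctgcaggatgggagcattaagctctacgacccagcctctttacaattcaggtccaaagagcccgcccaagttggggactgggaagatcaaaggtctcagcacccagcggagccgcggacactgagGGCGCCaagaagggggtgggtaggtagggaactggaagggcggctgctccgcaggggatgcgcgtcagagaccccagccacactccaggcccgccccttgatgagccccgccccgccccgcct
The word begins 231 bases before the start in Id2 and 123 bases before it in Cxcl12, and these letters are not in the Id3 window. Of the 13 genes of the response list, 8 had an entry in the promoter table and 2 of these held the word, Id2 and Smad9, beside 9.59% of all 32851 promoters in the table.

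Most arteriole genes were lower in aKO transition cells. Of 14, 10 were at least 1.5-fold lower and 1 higher (all genes: 18.5 and 22.1%), with a median log2 ratio of -1.39. Large artery genes went less that way, with 6 of 12 lower and 2 higher and sums of 2036 and 2030 CPM. Notch genes split, with 5 of 13 lower and 4 higher and a median of -0.17. Gja5, the connexin 40 of arterial gap junctions (chromosome 3, 96904693 to 97077416), had 89 UMIs in 48 aWT cells, or 164 CPM (132 to 202), and 1 UMI in aKO, or 2.58 CPM (0.0652 to 14.4). The ratio was 63.5-fold with an interval of 11.1 to 2540. Along the aKO zones Gja5 had 1.04, 11.8, 2.58, 26.0 and 67.1 CPM, so that it was counted at the arterial end of the same library. Gja4, connexin 37, had 318 and 33.5 CPM in transition cells. Edn1, the constrictor endothelin 1, had 348 and 10.3 CPM, in 73 and 3 cells. Efnb2, the arterial ephrin, had 1549 and 456 CPM, Hey1, a Notch target, 294 and 69.6, and Mecom 835 and 291. Dll4, a Notch ligand, had 338 and 191 CPM, while Jag1, another ligand, was higher in aKO, with 44.1 and 85.0 CPM. Olfm2, a secreted olfactomedin, had 188 CPM in aWT and 1 UMI in aKO.

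General capillary genes were also lower: 10 of 13 at least 1.5-fold, none higher (all genes: 18.5 and 22.1%), with a median log2 ratio of -1.29. Gpihbp1 had 677 and 232 CPM, Itga1, a collagen receptor, 1117 and 314, Hmcn1, a matrix protein, 1506 and 381, and Bmp6, a BMP ligand, 1394 and 289 CPM. Tspan7 (1400 and 1383 CPM) and Clec1a (532 and 654 CPM) stayed within 1.5-fold. Transition cells of aKO thus carried less of both the arteriole and the capillary lists, while the pan-endothelial list summed to nearly the same level (23346 and 23978 CPM). The ends showed the same side, with list medians of -0.93 and -1.01 for arteriole genes and -1.23 and -1.21 for capillary genes at the capillary and arterial ends.

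Among signals tied to vessel growth and tone, Vegfa was at 688 and 72.1 CPM, Nrp1, its co-receptor, at 1058 and 301, and Kdr, its main receptor, at 178 and 64.4, and 7 of 16 genes of the VEGF and sprouting list were lower and 3 higher (all genes: 18.5% lower, 22.1% higher). Vegfc was higher, at 25.8 CPM in aWT (14 UMIs, below both aWT ends) and 100.5 CPM in aKO. It was at 259 and 452 CPM at the capillary end. At the arterial end it went the other way, with 103 CPM in aWT and 54.6 in aKO. Of 14 vasomotor genes, 7 were higher and 4 lower (all genes: 22.1 and 18.5%), beside 7 of 13 higher at the capillary end and 8 of 15 at the arterial end. Nos3, the nitric oxide synthase, went the other way from Edn1, with 46.0 CPM (29.8 to 67.9) in 21 aWT cells and 312 CPM (259 to 373) in 60 aKO cells. Ednrb, an endothelin receptor, was at 27.6 and 155 CPM. All 6 measured genes of antigen presentation by MHC class II were lower, with a summed level of 206 and 7.73 CPM, as were 6 of 6 at the capillary end and 3 of 3 at the arterial end (all genes in transition cells: 18.5%). Of 14 MHC class I genes 4 were higher and 2 lower, with a median log2 ratio of 0.04. Of 12 chaperone genes, which respond to heat and handling stress, 10 were lower, Hspa1a at 2222 and 824 CPM, beside 11 and 9 of 12 at the capillary and arterial ends. The median log2 ratio was -0.93 in transition cells and -0.95 and -0.88 at the ends, and the part of handling in the differences was not tested. Of 20 oxidative phosphorylation genes 11 were higher and 0 lower, beside 1 and 2 of 20 higher at the capillary and arterial ends. The median log2 ratio was 0.60, next to the 1.5-fold limit, beside 0.33 and 0.39 at the ends. Aerocyte genes, of the thin gas-exchange capillary cells, split: 5 of 7 were higher and 2 lower, with a median log2 ratio of 1.88. Yet their sum was lower (2231 and 1301 CPM), since Nckap5, at 1961 and 631 CPM, outweighs the rest. Venous genes split as well, with 6 of 11 higher and 4 lower. Their median log2 ratio was 0.75, beside 0.01 and 0.16 at the ends, and their sum was lower (1889 and 1257 CPM).

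**Figure D4:**
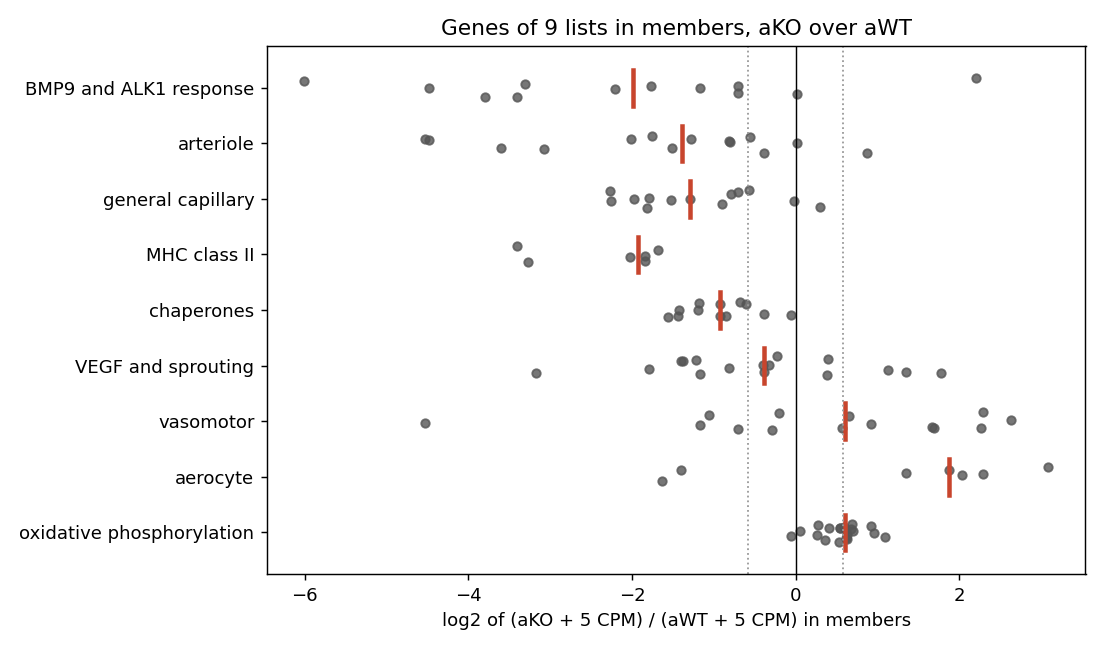
Log2 ratio of aKO over aWT (x axis) for single genes of 9 lists in transition cells; each grey dot is a gene with at least 5 CPM in 1 library, red bars are list medians and dotted lines mark 1.5-fold. The BMP9 and ALK1 response, arteriole, general capillary, MHC class II and chaperone lists lay mostly to the left and oxidative phosphorylation to the right.

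With sex-linked genes left out, Cmah, Cd34, Igfbp5 and Hdac9 were among the 12 genes with the largest ratios in aKO. Cd34, a sialomucin of endothelial and progenitor cells, had 27.6 CPM in aWT (15.4 to 45.5) and 688 in aKO (608 to 776), in 12 and 67 cells, 24.9-fold higher (14.8 to 45.2). After thinning, 3.82% and 64.7% of cells held a Cd34 UMI. The ends differed in the same direction, with 92.3 and 665 CPM at the capillary end and 26.0 and 506 CPM at the arterial end. Hdac9, a class IIa histone deacetylase, had 99.3 and 1332 CPM and also differed at both ends. Cmah, which makes the sialic acid Neu5Gc, had 2 UMIs in aWT and 79 in aKO, 55.3-fold higher (14.8 to 465). The aKO UMIs were in 25 transition cells, 20% of them in 1 cell. Over the aKO zones it had 131, 308, 204, 141 and 47.7 CPM.

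Igfbp5, which binds insulin-like growth factors (chromosome 1, 72857932 to 72874884), differed along the zones in aKO. It went there from 15.2 at the capillary end to 213, 649 (572 to 735), 724 and 463 CPM. In aWT its values lay between 9.63 and 27.6 CPM throughout. It was uneven among aKO transition cells, with 252 UMIs in 24 of 85 cells, 13% of them in 1 cell. D5Ertd615e, Gprc5b and Ltc4s, a leukotriene synthase, also climbed toward the aKO arterial end. Ltc4s had 2.49, 26.5, 64.4, 91.0 and 124 CPM there and 0 UMIs in aWT transition cells, at least 11.7-fold higher with a floor of 3 counts. Adamdec1, a metalloprotease, was at 0 UMIs in aWT and 59.3 CPM in aKO, at least 10.7-fold higher.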

How the data were processed

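The authors deposited 1 matrix of UMI counts per library (32286 features), made with Cell Ranger 7.2.0 on mm10 per the submitters' processing notes. The gene annotation's version and the handling of intronic reads were not given in the sources used here. The deposited counts summed to 72270260 UMIs in aWT and 75950364 in aKO. Counts of cells passing the filter were summed by library and zone and scaled to CPM, and ratios were taken on log2(CPM + 5), which understates changes of low genes. Genes entered a comparison at 50 CPM and 20 UMIs, or at 5 CPM within a list. With 1 library per group nothing was tested. Intervals are exact Poisson for levels and Clopper-Pearson for shares. Doublets were scored with Scrublet in scanpy 1.11.5 at an assumed 0.8% per 1000 barcodes and were kept. TMM factors came from edgeR 4.0.16 in R 4.3.3; other steps used Python 3.11.15, numpy 2.4.6, scipy 1.17.1, pandas 2.3.3 and matplotlib 3.10.9. The fold calls were tested on simulated counts with Poisson error only, without variation between cells or libraries. The zone limits and the thinning were checked on a few set values. Doublet scoring, positions, lists and shares were not tested in this way. Cells, genes and lists were chosen with earlier results of these data known.

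Genes named are up to 10 per direction past both ends or between the ends, 12 per direction between libraries (sex-linked, mitochondrial, ribosomal, haemoglobin and immunoglobulin genes left out), up to 4 per list by size of ratio, the arteriole, general capillary and BMP9 response lists, the 8 genes of the rule, Acvrl1 and Eng. Inhbb and Dnah12 fall outside this rule and were chosen after their values were seen. Xist, also outside it, is given as a check of the libraries. Gene positions are from the GENCODE annotation of GRCm38, and promoters from RefSeq. Alternatives varied the doublet treatment, the rule's limits, depth, pseudocount, minimum level, scaling and ends. Leaving out the airway-rich cell, leaving out each gene's top transition cell with the ends unchanged, and selecting on other genes were chosen after seeing the data.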

Additional observations from a re-analysis of the deposited data

How the results depend on the processing

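No paired analysis was possible because each group was 1 library and its replicate number is only a name. The share of transition cells moved with the R limits, to 1.512% in aWT and 2.027% in aKO at 35 to 65%, and to 0.5636% and 0.6534% at 45 to 55%, and in aKO to 1.135% with no upper UMI limit. The 4 genes above both ends became 2 with the narrower UMI range, 1 with a pseudocount of 20 CPM, 1 with TMM factors, 1 without each gene's top cell and 0 at a minimum of 100 CPM. The 2 genes below both ends became 1 with R at 35 to 65%, 1 with a pseudocount of 20 CPM, 7 at a minimum of 20 CPM, 4 without each gene's top cell and 0 at 100 CPM. Arterial-end genes numbered 254 at a minimum of 20 CPM and 93 at 100 CPM. Genes 2-fold higher in aKO numbered 226 with the narrower UMI range, 228 after thinning, 271 with a pseudocount of 20 CPM, 210 at a minimum of 100 CPM and 270 with cells selected by genes outside the rule. Genes 2-fold lower numbered 164 at 100 CPM. The percentage of these genes that were higher was 40.43 with the narrower UMI range, 47.01 after thinning, 48.94 with TMM factors and 49.6 after centring. The arteriole sum in aWT transition cells was 9443 CPM after thinning. The log2 ratio turned positive for Sorbs2 with cells selected by genes outside the rule (0.28), for Edil3 with the narrower UMI range (0.28) and for Fabp4 without its top cell (0.55). Of 503 list medians under the alternatives 408 stayed close and 95 moved, and of 2400 ratios of single genes 115 moved. A change of sign was counted only where the reported list median was at least 1.5-fold or the reported gene ratio at least 2-fold. On that count 0 list medians and 3 gene ratios changed sign, and sign changes of smaller values were not counted. The cause of these shifts was not tested. With 131 and 85 cells, genes of a few UMIs cannot be placed along the zones.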
